A study of Mus musculus with 10 samples.

Results

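RNA levels of 7 genes of the BPI fold family, Bpifb1, Bpifb5, Bpifa1, Bpifa2, Bpifc, Lbp and Pltp, were examined in the lungs of mice with and without a loss of Bpifb1. They are the listed family symbols found by Ensembl identifier among the 47333 rows of the deposited count table, and 6 of the 7 passed the filter on low counts. Another 10 family genes in the table, named further on, reached at most 1 count in any mouse. The tissue was the right middle lobe of whole lung from untreated C57BL/6J mice aged 12 weeks. The knockout group (KO) held 1 male and 4 females, and the wild-type group (WT) held 2 males and 3 females, all from cages shared between the genotypes. The KO allele is not given in the sources used here. Nothing states that the 5 mice of a group came from separate litters, so p-values measure the spread between these mice.

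Proteins of this family share an elongated fold that holds lipid in a hydrophobic pocket. BPIFB proteins carry both barrel domains of the fold, and the shorter BPIFA proteins carry only the N-terminal barrel. In the airways and mouth several members are secreted into the surface liquid, where they have been described as binding bacteria and lipopolysaccharide and as affecting surface tension and mucus. Lbp and Pltp are the members of blood plasma and tissue fluid. Lbp hands lipopolysaccharide to the receptor CD14, and Pltp moves phospholipid between lipoproteins.

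Most of the results concern neighbours on chromosome 2. In GENCODE M21 on GRCm38, 13 Bpif genes lie on its plus strand within 445602 bases (153875045 to 154320646). Bpifa2 spans 154008265 to 154016079, Bpifa1 spans 154142880 to 154149219, Bpifb1 spans 154190818 to 154220369 and Bpifb5 spans 154223742 to 154240902. Only 3372 bases separate the end of Bpifb1 from the start of Bpifb5, the shortest of the 12 gaps in the cluster. Lbp (158306493 to 158332852, plus strand) and Pltp (164839518 to 164857711, minus strand) lie farther along chromosome 2, and Bpifc lies on chromosome 10 (85959340 to 86011895, minus strand). The 250 bases before a RefSeq start (GRCm38.p6, plus strand, 5′ to 3′) are printed for the gene that was lost, for the neighbour that fell with it and for the neighbour on its other side that varied most. They are chr2:154190568-154190817 for Bpifb1, chr2:154223492-154223741 for Bpifb5 and chr2:154142630-154142879 for Bpifa1, and capitals mark motif matches. Of the 2 Bpifb1 windows in the RefSeq table the first is printed, and the other (154200130 to 154200379) also held none of the motifs searched.
Bpifb1: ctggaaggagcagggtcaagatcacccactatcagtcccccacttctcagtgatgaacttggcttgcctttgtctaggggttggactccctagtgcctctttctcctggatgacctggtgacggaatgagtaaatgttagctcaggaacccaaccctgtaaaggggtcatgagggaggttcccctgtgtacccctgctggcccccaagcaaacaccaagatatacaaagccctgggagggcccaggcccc
Bpifb5: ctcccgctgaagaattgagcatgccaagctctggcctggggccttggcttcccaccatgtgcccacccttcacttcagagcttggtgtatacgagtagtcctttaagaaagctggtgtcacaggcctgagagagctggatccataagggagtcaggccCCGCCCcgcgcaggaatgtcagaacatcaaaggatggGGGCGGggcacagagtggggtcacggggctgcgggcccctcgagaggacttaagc
Bpifa1: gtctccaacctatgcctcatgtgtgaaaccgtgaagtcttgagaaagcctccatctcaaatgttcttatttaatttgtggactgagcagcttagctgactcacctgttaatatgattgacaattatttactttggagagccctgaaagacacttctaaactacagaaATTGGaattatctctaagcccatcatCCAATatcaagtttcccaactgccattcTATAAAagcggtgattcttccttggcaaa
Both strands were searched for TATAAA (core letters of the TATA box), for CCAAT (the box of that name), for GGGCGG (the GC box), for TGTTTAC (read by forkhead factors) and for CAAGTG (read by NKX2-1), with no overlap among the matches. The Bpifb1 window held none of the 5 motifs. The Bpifb5 window held the GC box, which begins 55 bases before the start on the plus strand and 92 bases before it on the minus strand. The Bpifa1 window held a TATA box 29 bases before the start and CCAAT boxes 57 bases before it on the plus strand and 83 bases before it on the minus strand. Of 32851 promoter windows of the same length, 32.7% held a GC box, 12.4% a TATA box, 33.8% a CCAAT box, 3.17% the forkhead letters and 11.6% the NKX2-1 letters, so the matches describe these windows and single out no factor.

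Libraries held 21357452 to 28321361 counts. A level of 3 counts was taken as the least that can be read as detected. On unscaled library totals it corresponds to 0.106 to 0.140 CPM (counts per 1000000 counts), and these floors cover counting error only. The gene levels in CPM use library totals scaled by TMM, with factors from 0.949 to 1.02. The floors differ slightly on that scale. The level of a marker list was the mean log2 CPM of its genes with a mean of at least 1 CPM. Of 13 marker lists, 12 had a level and the KO and WT ranges of that level overlapped in all 12. The basal and the cartilage levels rested on 1 gene each. Sums over all genes of a list are given next. Club cell markers summed to 26157 to 29338 CPM in KO and 26796 to 34393 CPM in WT, ciliated cell markers to 622 to 743 and 626 to 712, and alveolar type 2 markers to 23411 to 26627 and 24300 to 28859. The basal markers Krt5, Krt14, Krt15 and Trp63 had means under 1 CPM, and the basal level was that of Dapl1 alone. In KO replicate 5, labelled female, Xist stood at 1.78 CPM against 274 to 407 in the other 6 females, and 4 Y-linked genes together had 0 counts against 2470 to 3441 in the males. The sex comparison is therefore given with and without that mouse.

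Bpifb1, a secreted protein of airway and gland epithelium, was nearly absent in the KO lungs. Its levels in KO replicates 1 to 5 were 0.433, 0.924, 0.232, 0.217 and 1.26 CPM, which are 11, 25, 5, 5 and 32 counts. In WT replicates 1 to 5 they were 78.7, 41.2, 79.6, 28.1 and 71.1 CPM. Every KO mouse lay below every WT mouse, and the lowest WT value was 22.2 times the highest KO value. The KO mean of 0.614 ± 0.462 CPM (SD, n = 5) was 1.03% of the WT mean of 59.7 ± 23.6 CPM. In edgeR's quasi-likelihood test with sex as a covariate the log2 fold change was -6.55 (SE 0.55, 95% interval -7.84 to -5.25, Benjamini-Hochberg adjusted p = 0.0275), the largest fall of 18024 genes tested. This is the gene that the labels say was lost, so its fall checks the labels. All 5 KO libraries still held counts above the 3-count floor. The adjusted p rose above 0.05 when any KO replicate, WT replicate 1 or WT replicate 5 was left out (0.0862 to 0.152), and stood at 0.104 in females alone and 0.0523 with limma-voom, while the log2 fold change stayed between -6.97 and -6.35. With the robust setting of the edgeR fit turned off, the adjusted p was 5.5e-05 at the same log2 fold change. DESeq2's Wald test gave an adjusted p of 4.3e-26.

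**Figure D1:**
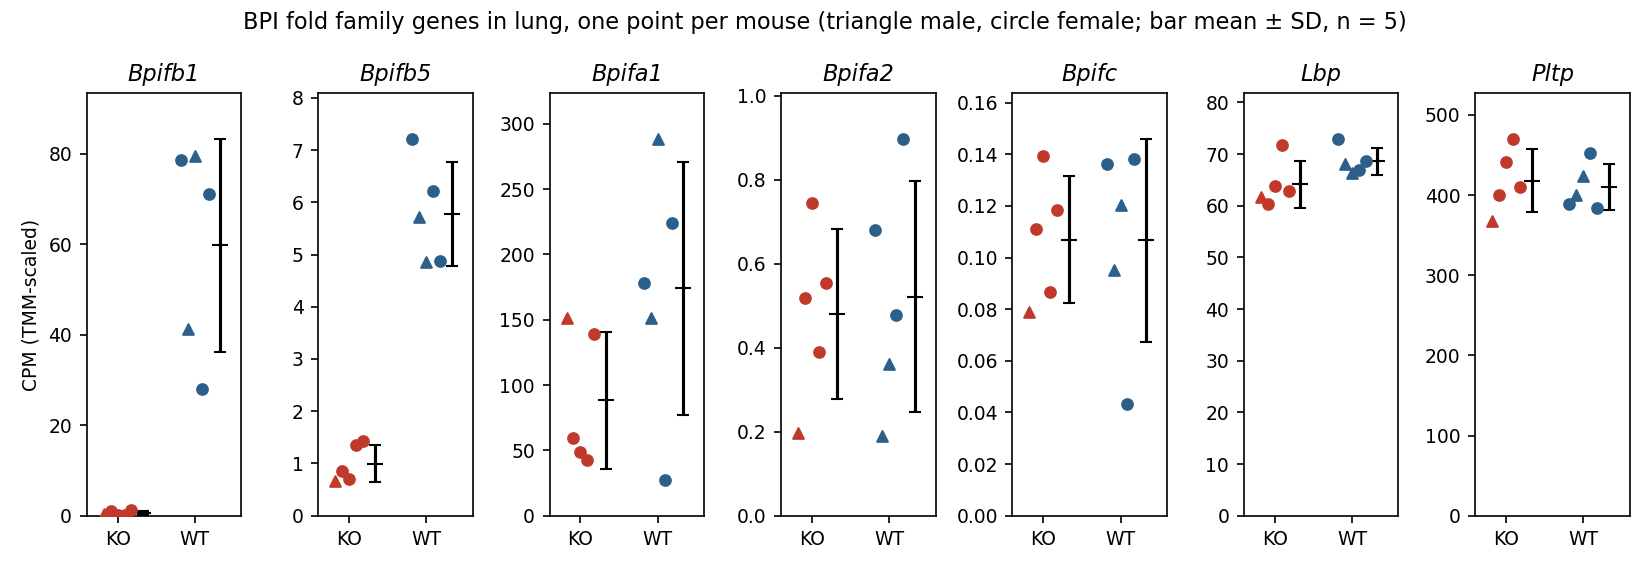
TMM-scaled CPM (vertical axis, from 0) of the 7 family genes in the 5 KO and 5 WT mice, with 1 point per mouse (triangles male, circles female) and a bar for the mean ± SD. The KO and WT points separate for Bpifb1 (at most 1.26 against at least 28.1 CPM) and Bpifb5 (at most 1.42 against at least 4.86 CPM) and overlap for the other 5 genes.

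Bpifb5, the next gene downstream and a little-studied BPIFB protein, also fell in KO. Its levels were 0.669, 0.850, 0.697, 1.35 and 1.42 CPM in KO replicates 1 to 5, from 17, 23, 15, 31 and 36 counts. In WT replicates 1 to 5 they were 7.22, 5.72, 4.86, 6.21 and 4.87 CPM, from 159, 120, 121, 143 and 141 counts. Again no KO mouse reached a WT mouse, and the lowest WT value was 3.42 times the highest KO value. The KO mean of 0.997 ± 0.361 CPM was 17.3% of the WT mean of 5.77 ± 0.991 CPM (SD, n = 5 each). The log2 fold change was -2.59 (SE 0.20, 95% interval -3.02 to -2.16, edgeR adjusted p = 1.0e-04), the lowest p of all 18024 genes and the third largest fall. Bpifb5 counts in the KO mice thus stayed above the 3-count floor in every library. The call held in all 19 alternatives run, with log2 fold changes from -2.73 to -2.48 and adjusted p of at most 0.00186.

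These 2 of the 6 tested family genes were called lower in KO at an adjusted p under 0.05, where 3 of all 18024 genes (0.0166%) were, and 4 genes (0.0222%) were called in either direction. They were also the 2 of 7 whose KO and WT ranges did not overlap, which held for 0.921% of all genes tested with KO lower. Bpifb1 is the gene lost by design, so among the other 5 tested family genes 1, Bpifb5, was called. The exact permutation test over the 252 ways to divide the mice gave p = 0.00794 for each, the smallest it can give. At an unadjusted p under 0.05 Bpifb5 was again the 1 of these 5 that passed, against 17.0% of all genes.

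Reads of Bpifb1 and Bpifb5 were separable by sequence. Their annotated transcripts shared 0 words of 31 bases and 0 of the 50-base read length, and their longest common run was 11 bases, ccagccaggag. The encoded proteins, of 474 and 490 residues, were identical at 91 of 460 aligned positions (19.8%). None of the 1607 words of 31 bases in Bpifb5 occurred in another annotated gene on either strand, and 10 of the 3612 in Bpifb1 did. The deposited estimates of both genes lay within 0.01 of a whole number in all 10 mice.

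The nearest genes on either side of the cluster did not pass the test. On the far side of Bpifb5, Cdk5rap1, a tRNA-modifying enzyme, stood at 5.85 ± 0.498 CPM in KO and 7.18 ± 1.26 in WT (log2 fold change -0.33, SE 0.12, edgeR adjusted p = 0.205). Its unadjusted edgeR p was 0.0146. On the other flank the microtubule-binding Mapre1 (0.02, SE 0.05, adjusted p = 0.870) and the gene model Gm14494 (-0.20, SE 0.10, adjusted p = 0.337) did not pass either. The log2 fold changes of these 3 genes were thus at most 0.33 in size, against 2.59 for Bpifb5.

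**Figure D2:**
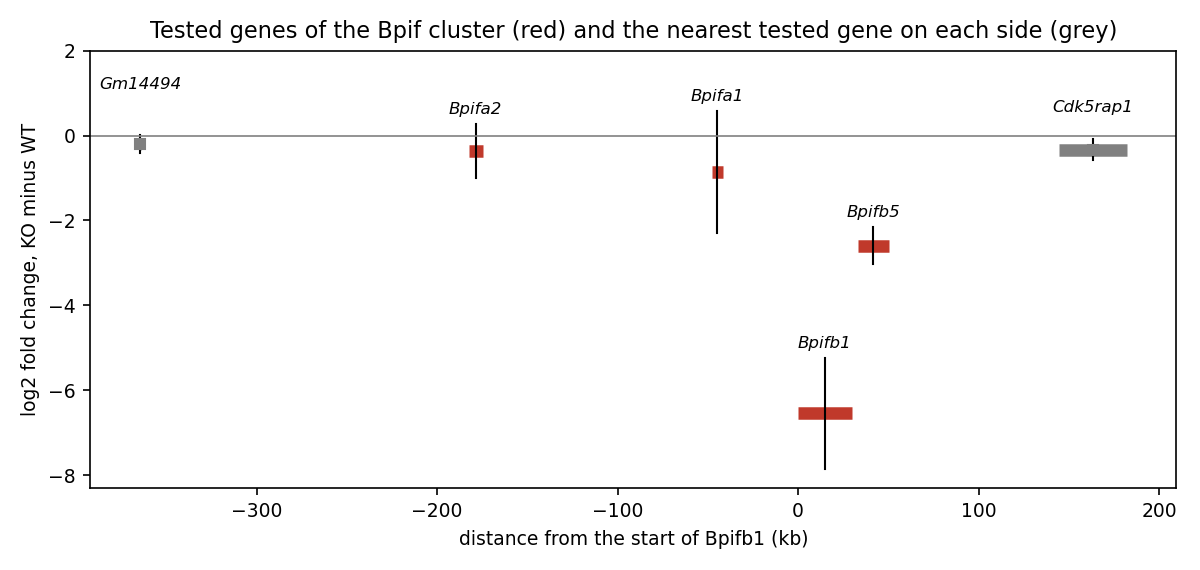
Fitted log2 fold change, KO minus WT (vertical axis), against distance from the start of Bpifb1 in kb for the 4 tested genes of the cluster (red, drawn to length) and the nearest tested gene on each side (grey; the square for Gm14494 is wider than the gene), with 95% intervals as vertical lines. Bpifb1 (-6.55) and Bpifb5 (-2.59) lie far below 0, while the intervals of Bpifa1, Bpifa2 and Gm14494 include it. The interval of Cdk5rap1 (-0.58 to -0.08) lies below 0, and Cdk5rap1 did not pass after adjustment.

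Bpifa1, a secreted surfactant-like protein of the upper airways also known as SPLUNC1, had the widest spread in the family among WT mice. KO replicates 1 to 5 held 151, 59.5, 48.5, 42.7 and 139 CPM. WT replicates 1 to 5 held 178, 151, 288.5, 27.4 and 224 CPM. The lowest of the 10 values was that of WT replicate 4, and the groups overlapped. The KO mean of 88.2 ± 52.5 CPM was 50.7% of the WT mean of 173.9 ± 97.1 CPM (SD, n = 5 each). The log2 fold change of -0.86 (SE 0.61) had a 95% interval from -2.28 to 0.57, which spans 0.205 to 1.49 times the WT level, and did not pass (edgeR adjusted p = 0.513, exact permutation p = 0.135). Without WT replicate 4 it was -1.15 (adjusted p = 0.245), and over 19 alternatives it ran from -1.19 to -0.51. A loss of most Bpifa1 RNA and a gain to as much as 1.49 times the WT level both lie within this interval.

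Marker RNA of fat and of heart muscle also varied between these mice. Summed CPM of 8 adipocyte genes (Adipoq, Plin1, Cidec, Cfd, Fabp4, Lep, Retn and Car3) was 344, 221, 194, 208 and 463 in KO replicates 1 to 5, and 397, 193, 271, 98.8 and 527 in WT replicates 1 to 5. Summed CPM of 8 cardiac muscle genes (Myh6, Myl7, Myl4, Actc1, Tnnt2, Tnni3, Nppa and Ryr2) was 1260, 793, 727, 751 and 1086 in KO, and 1096, 680, 720, 460 and 1234 in WT. Both sums were lowest in WT replicate 4, the mouse with the least Bpifa1, and KO replicates 1 and 5 had the highest sums and the highest Bpifa1 of the KO mice. WT replicates 2 and 3 did not follow this order. WT replicate 3 had the most Bpifa1, but only WT replicates 2 and 4 had a lower cardiac sum among the 10 mice. WT replicate 2 held 151 CPM of Bpifa1, as KO replicate 1 did, but only WT replicate 4 had a lower sum for either list. All 8 genes of each list were detected, and both lists were chosen after the values were seen. Their part in the spread of Bpifa1 was not tested. In whole lobes a smaller share of the cells that make a transcript and less of it per cell cannot be told apart.

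**Figure D3:**
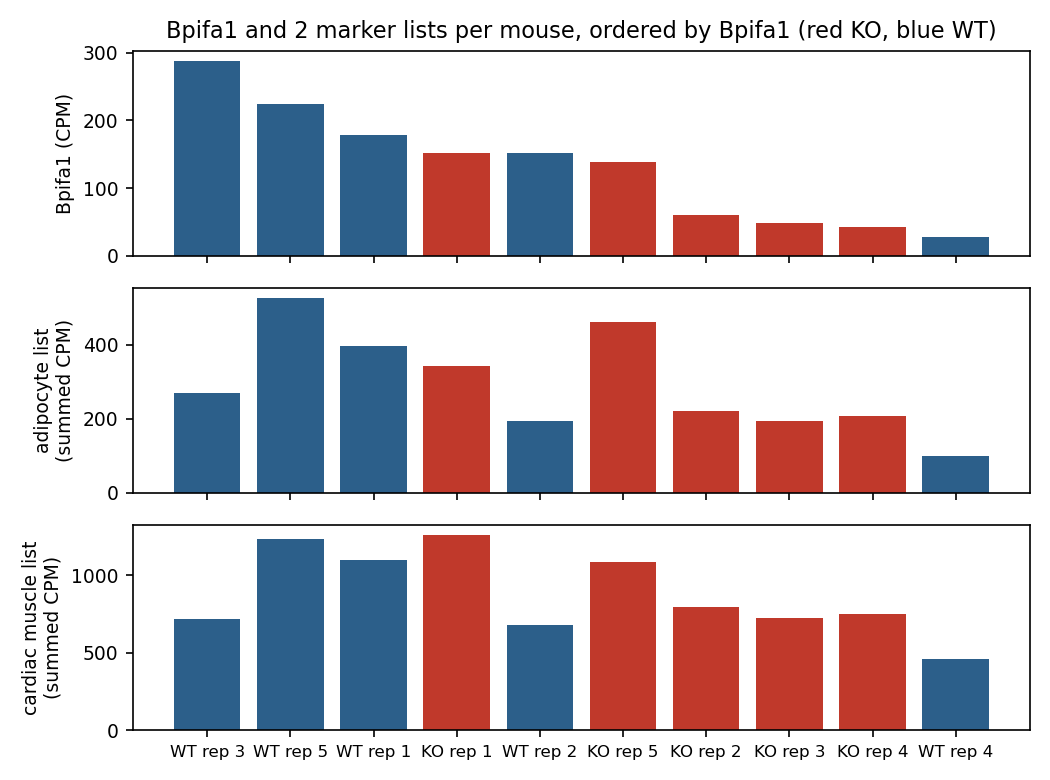
Bpifa1 CPM and the summed CPM of the adipocyte and cardiac muscle lists (vertical axes, from 0) in the 10 mice, ordered by Bpifa1 (red KO, blue WT). WT replicate 4 is lowest in all panels, with 27.4, 98.8 and 460 CPM. WT replicate 2 is next lowest in both marker panels but not for Bpifa1.

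The 5 genes whose pattern over the 10 mice lay nearest to Bpifa1 were Cyp4a12b, Aqp7, Fmo6, Pck1 and Fabp4. Their root mean square distances on centred log2 CPM were 0.57, 0.57, 0.58, 0.60 and 0.63, against a spread of 1.09 for Bpifa1 itself, which is its distance from a flat gene. Aqp7 (a glycerol channel), Pck1 (an enzyme of glyceroneogenesis) and Fabp4 (a fatty acid carrier) are known from fat cells. Cyp4a12b, the nearest, and Fmo6 are not counted with them. Fabp4 also belongs to the adipocyte list above, chosen after the values were seen, so this pattern and that sum are not independent. Aqp7 ran from 0.0434 CPM, under the 3-count floor, to 1.14 CPM, and Fmo6 from 0.174 to 1.28 CPM.

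Bpifa2, the parotid secretory protein of saliva, was near the floor in lung. KO replicates 1 to 5 held 0.197, 0.517, 0.744, 0.391 and 0.553 CPM, and WT replicates 1 to 5 held 0.681, 0.191, 0.362, 0.478 and 0.898 CPM, from 4 to 26 counts per library. The groups overlapped throughout, with means of 0.480 ± 0.203 and 0.522 ± 0.276 CPM (SD, n = 5 each). The log2 fold change was -0.36 (SE 0.29, 95% interval -0.99 to 0.26, edgeR adjusted p = 0.548). The salivary markers Smr3a and Prol1 were at 0 counts in all mice, and Muc19 had a mean under 1 CPM. The salivary list of 5 genes summed to 7.02 to 8.94 CPM in KO and 7.21 to 8.60 in WT, mostly from Amy1 and Bhlha15.

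Between the sexes, Bpifa2 was the only one of the 7 genes whose ranges did not overlap, and 2.55% of all genes tested had every male below every female. The 3 males held 0.197 CPM (KO replicate 1), 0.191 CPM (WT replicate 2) and 0.362 CPM (WT replicate 3), and the 7 mice labelled female held 0.391 to 0.898 CPM. Means were 0.250 ± 0.0969 (SD, n = 3) and 0.609 ± 0.175 (SD, n = 7), and the exact permutation test gave p = 0.0167, with 0.00833 the smallest possible over 120 divisions. Without KO replicate 5 the female mean was 0.618 ± 0.190 (SD, n = 6) and the exact permutation p was 0.0238, with 0.0119 the smallest possible. The male minus female log2 fold change of -1.34 (SE 0.36, 95% interval -2.11 to -0.58) did not pass after adjustment over all genes (edgeR adjusted p = 0.104). Without KO replicate 5 it was again -1.34, with an adjusted p of 0.144. Of all genes 0.583% were called between the sexes (0.514% without KO replicate 5), and none of the 6 tested family genes was. Bpifa1 stood at 0.80 (SE 0.64, adjusted p = 0.615), or 1.01 without KO replicate 5, and Bpifb5 at -0.32 (SE 0.21, adjusted p = 0.514), or -0.27 without it. For Bpifb1 the value was -0.01 (SE 0.46), and its sign turned with WT mice alone (0.03) and without KO replicate 5 (0.02).

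**Figure D4:**
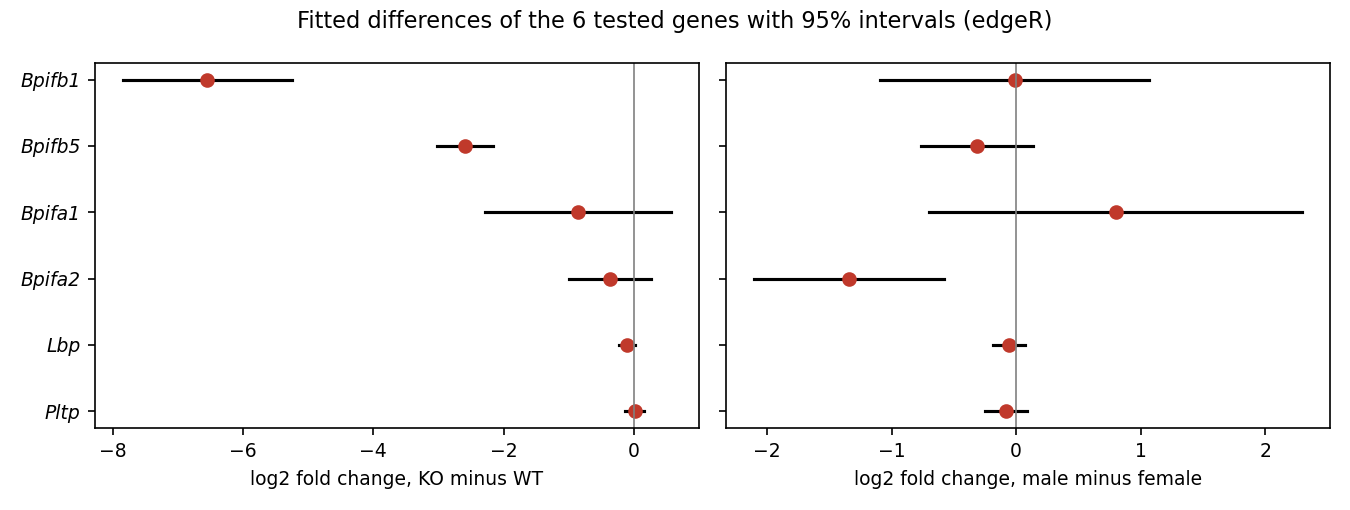
Fitted log2 fold changes (points) with 95% intervals (lines) of the 6 tested family genes for KO minus WT (left) and male minus female (right). The KO minus WT intervals lie wholly below 0 for Bpifb1 and Bpifb5, and the male minus female interval lies wholly below 0 for Bpifa2 (-2.11 to -0.58), which did not pass after adjustment.

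Bpifc, a member best known from skin, was at the floor. It held 1 to 4 counts in each library, with means of 0.107 ± 0.0245 CPM in KO and 0.107 ± 0.0393 in WT, and was not tested across genes. No difference of it was detectable at this depth. Of the other 10 family genes, Bpi, Bpifa5, Bpifb2, Bpifb3, Bpifb6 and Bpifb9b had 0 counts in every mouse. Bpifa3 had 1 count in each of 4 libraries, Bpifa6 in 3, Bpifb9a in 2 and Bpifb4 in 1, and the 10 genes together had 10 counts over all mice. For each, a count of 0 allows a level of up to 0.106 to 0.140 CPM on unscaled totals, depending on the library.

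Lbp, which delivers lipopolysaccharide to CD14, did not pass the test. KO replicates 1 to 5 held 61.7, 60.4, 63.9, 71.8 and 62.9 CPM, and WT replicates 1 to 5 held 73.0, 68.1, 66.4, 67.0 and 68.6 CPM. All KO mice but replicate 4 lay below all WT mice, and KO replicate 4 lay above all but WT replicate 1. The log2 fold change was -0.11 (SE 0.05, 95% interval -0.23 to 0.01; edgeR adjusted p = 0.330, exact permutation p = 0.103). Of 10 genes of lipopolysaccharide recognition 9 were tested, and 0 were called in either direction. At an unadjusted p under 0.05, 1 was higher and 0 lower, against 17.0% of all genes in either direction. The list's median log2 fold change was -0.04 against -0.0027 over all genes. Its lowest p belonged to Tirap, an adaptor of the receptor TLR4, at 23.8 ± 1.25 CPM in KO and 21.4 ± 1.91 in WT (log2 fold change 0.16, edgeR adjusted p = 0.254). The receptors Cd14 and Tlr4 stood at -0.04 (SE 0.08) and 0.10 (SE 0.09).

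Pltp, the phospholipid transfer protein, was the most abundant family gene and did not differ between the groups beyond their spread. KO replicates 1 to 5 held 368, 399.97, 441, 470.4 and 409.95 CPM, and WT replicates 1 to 5 held 389, 399.6, 424, 452 and 384 CPM. The WT range lay within the KO range. The log2 fold change was 0.01 (SE 0.07, 95% interval -0.14 to 0.16, edgeR adjusted p = 0.966), and its sign turned when KO replicate 3, KO replicate 4, WT replicate 1 or WT replicate 5 was left out. Of the words of 31 bases in Pltp, 13.9% also occur in the overlapping Ctsa, counted on either strand. The deposited estimates of Pltp were not whole in any mouse, so its counts may depend on how shared reads were divided. Of 14 genes of phospholipid and cholesterol transfer 12 were tested, and 0 were called. At an unadjusted p under 0.05, 2 were higher and 1 lower, against 17.0% of all genes in either direction, with a list median of 0.02. Its lowest p belonged to Abca1, which exports cellular cholesterol, at 88.0 ± 10.2 CPM in KO and 74.0 ± 8.51 in WT (log2 fold change 0.26, edgeR adjusted p = 0.222).

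Most of the other listed secreted proteins of the airway lining were not called. Of 20 listed genes 18 were tested, 0 were called higher and 1 lower, with a median log2 fold change of -0.0015. The gene called lower was Chia1, an acidic chitinase, at 46.9 ± 5.36 CPM in KO and 81.1 ± 5.38 in WT (log2 fold change -0.76, edgeR adjusted p = 2.9e-04). Chia1, Bpifb1 and Bpifb5 were the 3 genes called lower in the whole comparison. At an unadjusted edgeR p under 0.05, 1 of the 18 tested genes was higher and 5 were lower. This is a larger share than the 17.0% of all genes in either direction. The 5 lower genes were Chia1, Sftpa1, Wfdc2, Lyz2 and Sftpd, and the higher gene was Pigr. The list was drawn up with earlier results of these data known, so Chia1, Pigr and the larger share are no independent findings.

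Levels between genes are compared per kilobase of exon. In WT lungs Pltp stood at 159.9 ± 11.1 CPM per kilobase, Bpifa1 at 112.5 ± 62.8, Bpifb1 at 16.5 ± 6.52, Lbp at 14.2 ± 0.537, Bpifb5 at 3.53 ± 0.605, Bpifa2 at 0.260 ± 0.137 and Bpifc at 0.0375 ± 0.0138 (SD, n = 5 each). Pltp and Bpifa1 overlapped (Bpifa1 ranged from 17.7 to 187), as did Bpifb1 (7.77 to 22.0) and Lbp (13.7 to 15.1). The exon length of Bpifb1 includes a transcript with a retained intron, and with the length of its main protein-coding transcript Bpifb1 stood at 35.2 and Lbp at 27.2. With the longest transcript of each gene the order was the opposite, 16.8 for Bpifb1 and 27.2 for Lbp. Per kilobase of exon, the level of Bpifb1 was 4.93, 3.26, 7.41, 2.05 and 6.61 times that of its neighbour Bpifb5 in WT replicates 1 to 5.

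Among the WT mice Bpifb1 and Bpifa1 varied more than most genes, and Lbp and Pltp less. The SD of log2 CPM was 0.67 for Bpifb1 and 1.34 for Bpifa1, larger than for 97.3% and 99.4% of the genes tested, while the median gene had 0.14. It was 0.71 for Bpifa2, whose few counts add counting error, 0.24 for Bpifb5, 0.10 for Pltp and 0.05 for Lbp. The highest WT mouse held 2.83 times the lowest for Bpifb1 and 10.5 times for Bpifa1, but 1.48 times for Bpifb5. With 5 mice a correlation would have no footing, so the order of the mice is given. From high to low, Bpifb1 ran through WT replicates 3, 1, 5, 2 and 4, and Bpifa1 through 3, 5, 1, 2 and 4. Bpifb5 ran through 1, 4, 2, 5 and 3. Replicate 4 was thus lowest for Bpifb1 and Bpifa1 and the second highest for Bpifb5, and replicate 3 was highest for the former pair and lowest for Bpifb5. Some of these places are near ties. Bpifb5 was almost equal in replicates 3 and 5 (4.86 and 4.87 CPM), as was Bpifb1 in replicates 3 and 1 (79.6 and 78.7 CPM). The order of Bpifb5 rests on 120 to 159 counts per mouse, so small steps in it may be counting error.

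**Figure D5:**
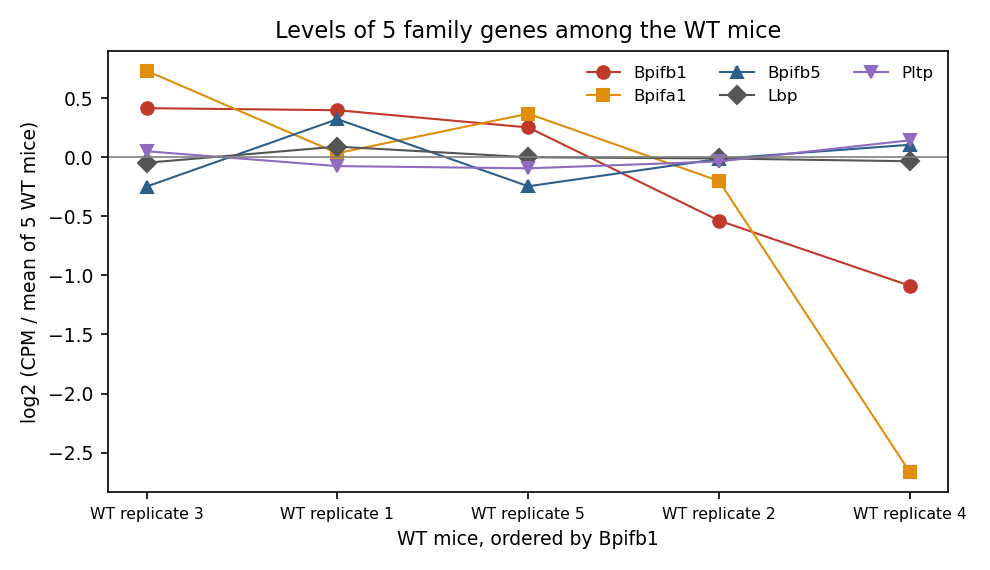
Log2 of CPM over the mean of the 5 WT mice (vertical axis) for 5 family genes, with the WT mice ordered by Bpifb1. Bpifb1 and Bpifa1 are lowest in replicate 4, and Lbp and Pltp stay close to 0.

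Bpifa1 was lower relative to Bpifb1 in WT replicate 4 than in the other WT mice. The ratio of Bpifa1 to Bpifb1 counts was 2.26, 3.67, 3.62 and 3.16 in WT replicates 1, 2, 3 and 5 and 0.975 in WT replicate 4. The 5 genes nearest to Bpifb1 over the WT mice were Mcpt4 (a mast cell protease), the gene model Gm13307, Trdn (triadin of striated muscle), Eef1a2 (an elongation factor of muscle and neurons) and the gene model Gm13142. Their distances ran from 0.12 to 0.17 on the log2 scale against 0.60 for a flat gene. With a prior count of 0.5 in place of 2, 4 of the 5 stayed among the first 5 and Mcpt4 moved to rank 37. Over the WT mice Mcpt4 ran from 0.130 to 0.603 CPM and Gm13307 from 0.261 to 0.863 CPM, close to the floor. The distance counts the size of a gene's swings as well as their order, so it does not rank Bpifa1, which varied more than Bpifb1, by the likeness of its order.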

How the data were processed

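RNA of 10 mouse lung lobes was measured from stranded mRNA libraries read as single 50-base reads, per the labels' protocols. The authors deposited 1 table of estimated counts per Ensembl gene, not scaled between libraries. STAR 2.6.0, Salmon 0.9.1, mm10 and GRCm38 are named in the submitters' processing notes, and their roles and the annotation are not given in the sources used here. Of the non-zero deposited values, 30.1% were not whole (tolerance 0.01), which can arise where reads matching several transcripts are divided, so counts of genes with near-identical copies are uncertain. All 10 columns were assigned to samples by their names, and 0 were left without one. Of 47333 identifiers, 47281 matched GENCODE M21, and the 52 others held 0.00668% of the counts. No mitochondrial genes were in the table used here.

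Estimated counts were rounded. Genes were kept by filterByExpr (minimum count 10, minimum total 15), which left 18024, and scaled by TMM. KO and WT were compared by edgeR 4.0.16 in R 4.3.3 (robust quasi-likelihood fit, sex as covariate, Benjamini-Hochberg adjustment over all genes, called at an adjusted p under 0.05). Standard errors follow from the fold change and its F statistic. Single values were compared by two-sided exact permutation tests. The scripts were tested on simulated data. Alternatives used DESeq2 1.42.0, limma-voom (limma 3.58.1), other filters and scalings, females alone and each mouse left out. Replicate numbers follow accession order and pair no mice.

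Promoters came from RefSeq (GRCm38.p6), with 6 of the 7 genes matched (no entry for Lbp). Proteins translated from the annotated transcripts were aligned with Biopython 1.88. Pattern distances used log2 CPM with a prior count of 2. Named genes were the 7 members, the 2 nearest tested genes on each side of the cluster (1 is not reported here), the 5 nearest in pattern to Bpifb1 and to Bpifa1, and from each list the called genes and the one with the lowest p. Cd14 and Tlr4 were named, and the adipocyte and cardiac lists drawn up, after values were seen. The members and lists were chosen with earlier results of these data known.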

Additional observations from a re-analysis of the deposited data

How the results depend on the processing

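The count of genes called was 4 (1 higher, 3 lower), and it was 50 (31 up, 19 down) when genes of low counts were kept, 346 with DESeq2's Wald test (253 higher, 93 lower), 2 with limma-voom and 2 to 18 with each mouse left out (2 without KO replicates 2, 4 or 5 or WT replicate 1, and 18, of them 14 higher, without WT replicate 3). Bpifb1 kept its direction in all 19 alternatives. It lost its call with limma-voom (log2 fold change -6.72, adjusted p = 0.0523), with females alone (-6.42, adjusted p = 0.104) and in 7 of 10 fits with a mouse left out (all fits -6.97 to -6.35), and the cause was not tested. Bpifb1 kept its call in the other 10 alternatives. Their adjusted p ran from 4.3e-26 with DESeq2's Wald test to 0.0446 without WT replicate 2 (edgeR). In edgeR without the robust setting it was 5.5e-05. Bpifb5 kept its call in all 19. Bpifa1, Bpifa2 and Lbp kept their direction and were not called in any alternative that gave a value, with log2 fold changes of -1.19 to -0.51, -0.53 to -0.16 and -0.15 to -0.09. The value of Pltp ran from -0.033 to 0.0752 with each mouse left out and turned below 0 without KO replicate 3 (-0.0058), KO replicate 4 (-0.029), WT replicate 1 (-0.027) or WT replicate 5 (-0.033), and the cause was not tested. The male minus female value turned above 0 for Bpifb1 with WT mice alone (0.0343) and without KO replicate 5 (0.0203), and for Pltp with WT mice alone (0.0173). Bpifa2 did not pass the filter with WT mice alone and gave no value there. No paired analysis was possible because the replicate numbers follow accession order and pair no mice. The exon length used sets the order of Bpifb1 and Lbp per kilobase. The length of the main protein-coding transcript and the sex comparison without KO replicate 5 were chosen after seeing the data. Depth limits Bpifa2 and Bpifc, which held at most 26 and 4 counts in any mouse.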

Other observations

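The residual Bpifb1 levels of the KO mice (11, 25, 5, 5 and 32 counts in replicates 1 to 5) ran from high to low through KO replicates 5, 2, 1, 3 and 4. Bpifa1 ran through 1, 5, 2, 3 and 4. For Bpifb1, KO replicates 3 and 4 were tied at 5 counts and differed only by library scaling. With 5 to 32 counts per mouse, steps in its order may be counting error. Per kilobase of exon, the level of Bpifb1 was 0.293, 0.492, 0.151, 0.0730 and 0.402 times that of Bpifb5 in KO replicates 1 to 5, where in the WT mice it was 2.05 to 7.41 times that of Bpifb5. With the lengths of the main protein-coding transcripts the KO ratios were 0.623, 1.05, 0.321, 0.155 and 0.856, and the WT ratios ran from 4.36 to 15.8. Bpifb5 was thus the less abundant of the pair in all 5 WT mice by either length, while in KO replicate 2 the order depended on the length used.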
